A study of Mus musculus with 6 samples.

Results

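The 10 genes described here handle heme and iron: Hmox1, Hmox2 and Blvrb break heme down, Fth1 and Ftl1 store iron, Slc40a1 exports it, Tfrc, Slc11a2 and Steap3 bring it in, and Ireb2 senses it. They were chosen by name, with their difference between PM2.5-exposed and control cells already known, out of 54886 genes listed. Their values in that comparison are therefore a description, and no p-value is given for any of the 10. RNA came from GC-2spd, a mouse cell line of BALB/c background that the labels call spermatocyte-derived, grown in DMEM with serum and antibiotics. The PM2.5 group was exposed for 48 h to a dose of 100 μg/mL. The control group (0 μg/mL) had normal medium with, by the study's methods, added PBS. The particles were a purchased urban dust standard suspended in PBS, and all cells were of this 1 line. The control group and the PM2.5 group (the exposed libraries) had 3 libraries each, and no label says whether they came from separate cultures, so the spread between them may be technical.

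Heme oxygenase opens the heme ring and releases iron, carbon monoxide and biliverdin, and biliverdin reductases turn the last of these into bilirubin. Free iron is held in ferritin, a shell of heavy (Fth1) and light (Ftl1) chains. Cells take iron up as transferrin through the transferrin receptor (Tfrc), reduce it in the endosome with Steap3 and move it into the cytosol with Slc11a2 (DMT1), while ferroportin (Slc40a1) is the known exporter. Iron regulatory proteins, among them the product of Ireb2, bind stem-loops called iron-responsive elements when iron is scarce. A stem-loop before the coding sequence then blocks translation, and stem-loops behind it protect the mRNA from decay. Hmox1 and the ferritin genes are also textbook targets of NRF2, and Hmox1 is repressed by the heme sensor BACH1.

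The stem-loops are shown first, because they are a sequence feature shared by Fth1, Ftl1, Slc40a1 and Tfrc. The search asked for a C, 5 bases, the loop CAGTGN and 5 bases that pair with the first 5, with G-U pairs allowed. It ran on the forward strand of all coding transcripts of GENCODE M21 on GRCm38. Of 22527 genes with a coding transcript, 175 (0.777%) held such a stem-loop in an untranslated region. Among the 10 genes it was found in 4, with 7 elements in all. Each is printed over 27 bases from 5′ to 3′, with the loop in capitals.
Fth1, 5′ UTR, chr19:9982733-9982759, plus strand: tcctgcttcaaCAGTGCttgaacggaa
Ftl1, 5′ UTR, chr7:45459780-45459806, minus strand: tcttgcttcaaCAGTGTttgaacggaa
Slc40a1, 5′ UTR, chr1:45925466-45925492, minus strand: aacttcagctaCAGTGTtagctaagtt
Tfrc, 3′ UTR, chr16:32631220-32631246, plus strand: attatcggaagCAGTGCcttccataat
Tfrc, 3′ UTR, chr16:32631599-32631625, plus strand: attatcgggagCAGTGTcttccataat
Tfrc, 3′ UTR, chr16:32631664-32631690, plus strand: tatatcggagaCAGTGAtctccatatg
Tfrc, 3′ UTR, chr16:32631711-32631737, plus strand: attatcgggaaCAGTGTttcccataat

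The elements of Fth1 and Ftl1 were the same in 25 of 27 bases. The bulged C lay at base 93 of the Fth1 mRNA, base 84 of Ftl1 and base 96 of Slc40a1, ahead of the coding sequence in each. In Tfrc the 4 matches lay between bases 3321 and 3812, behind the coding sequence, which ends at base 2429. Hmox1, Hmox2, Blvrb, Slc11a2, Ireb2 and Steap3 had no match. No match says only that these letters and pairs were not there. An element with a bulge or an unpaired base within the 5 pairs would be missed.

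**Figure D1:**
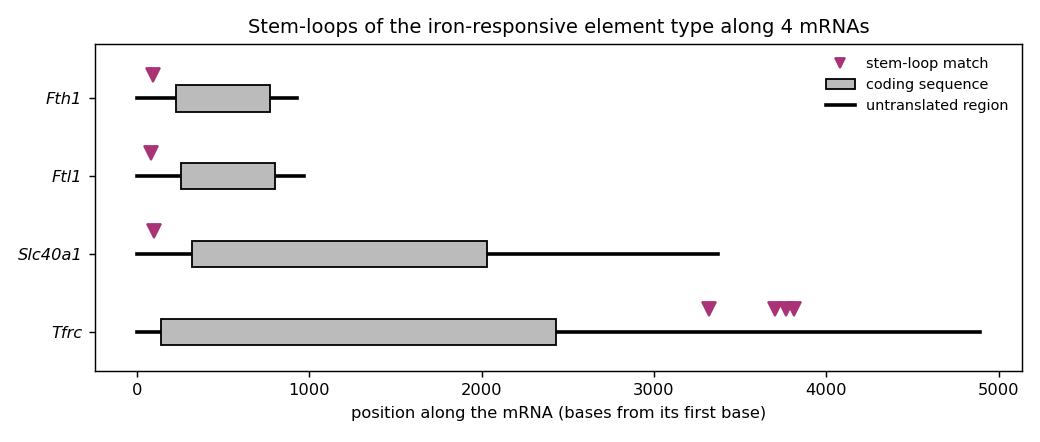
Position of each stem-loop match (triangles) along the principal mRNA of Fth1, Ftl1, Slc40a1 and Tfrc, in bases from the first base, with the coding sequence as a grey box and the untranslated regions as a line. Fth1, Ftl1 and Slc40a1 each have 1 match before the coding sequence, and Tfrc has 4 behind it.

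The files give FPKM, fragments scaled by gene length and by a size factor of the library, and whole reads were recovered from its steps. The 6 libraries held between 16209352 and 18003201 recovered reads. Control replicate 2 stood apart: mitochondrial genes took 14.5% of its reads and 1.65% to 1.95% of those of the other 5 libraries, and its lowest correlation with another control across genes was 0.742. Across 11735 genes, which are not independent replicates, its log2 deviation from controls 1 and 3 had a Spearman's rho of -0.30 with gene length and 0.34 with GC content. Log2 fold changes are therefore given with and without it, and ranks within a list are those with all 6 libraries. Markers were checked as well. Of 15 germ cell markers, 0 reached a mean FPKM of 1, Dazl, Spo11, Hormad1, Piwil1, Pgk2 and Mael were at 0 in every library, and their summed FPKM was 0.481 to 2.70 in the control group and 0.180 to 0.652 in the PM2.5 group. Of 6 fibroblast markers, 5 reached it (Col1a1, Col1a2, Col3a1, Pdgfra and Vim), with sums of 899 to 1375 and 673 to 882. These values go against a germ cell, and the line is called GC-2spd here. Of 6 erythroid markers, 0 reached a mean FPKM of 1 (summed FPKM 0.135 to 1.29 and 0.164 to 0.359), and of 6 macrophage markers Cd68 and Cd14 did, with sums of 6.78 to 27.8 and 7.89 to 8.75. For Sertoli markers 2 of 7 did, with sums of 19.7 to 20.5 and 12.8 to 25.2, and for Leydig markers 1 of 6, with sums of 2.01 to 2.59 and 1.74 to 1.89. The part of these genes in the results was not tested. With RNA from many cells at once, a change in the number of cells of a type cannot be told apart from a change of RNA per cell.

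Of the 10 genes, 9 passed the filter of a mean FPKM of at least 1 and were among the 11884 genes fitted with limma on log2(FPKM + 1). Slc40a1 did not pass. Calls required an absolute log2 fold change above 1 and a p-value under 0.05 after Benjamini-Hochberg adjustment. With all 6 libraries, 0 of the 9 genes were called by limma. Of all genes tested 0.0926% were (0.0337% higher and 0.0589% lower after exposure), and 451 had an unadjusted p-value under 0.05. Without control replicate 2, 1 of the 9, Hmox1, was called as higher. In that fit 0.707% of all genes were called, 0.16% as higher and 0.547% as lower. The choice of the genes used this comparison, so nothing is read from these counts.

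Hmox1 (ENSMUSG00000005413, chr8:75093621-75100589), the inducible heme oxygenase, was the member with the widest gap between the groups. Its FPKM was 25.9, 20.4 and 26.6 in control replicates 1, 2 and 3, against 127, 118 and 90.0 in PM2.5 replicates 1, 2 and 3. The PM2.5 libraries all lay far above the control libraries, and control replicate 2 was close to the other controls on the FPKM scale. The controls averaged 24.3 ± 3.38 and the exposed libraries 112 ± 19.2 (SD, n = 3 each), which is 4.60-fold higher. On the scale of FPKM + 1 the log2 fold change was 2.15 (standard error 0.23), and 2.03 (standard error 0.17) without control replicate 2. The reads behind it were 840, 463 and 839 in the controls, against 3963, 3667 and 2849 in the exposed libraries, and none of its 31-base sequences occurs in another gene. As a share of all recovered reads, control replicate 2 was further off, with 0.00286% against 0.00467% and 0.00479% in controls 1 and 3.

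Hmox2 (ENSMUSG00000004070, chr16:4726361-4766742), the heme oxygenase that cells make without induction, was level between the groups apart from 1 library. The control libraries had an FPKM of 18.5, 4.76 and 17.8, and the PM2.5 libraries 17.1, 17.5 and 20.7. The 4.76 belongs to control replicate 2, and without it the groups overlapped. With all libraries its log2 difference was 0.60 (standard error 0.50), and it was 0.02 (standard error 0.11) without that library. Hmox2 overlaps Cdip1 on the opposite strand, 46.0% of its 31-base sequences are shared with other genes, and the strand used in counting is not given in the sources used here, so its reads are uncertain. The FPKM of Hmox1 was 1.40, 4.28 and 1.49 times that of Hmox2 in the controls, against 7.40, 6.73 and 4.35 times in the exposed libraries.

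Blvrb (ENSMUSG00000040466, chr7:27447978-27466144) encodes biliverdin reductase B. It had an FPKM of 7.19, 19.7 and 7.04 in the controls, against 10.5, 10.4 and 11 in the exposed libraries. Control replicate 2 was the highest of all 6, while the PM2.5 libraries lay above controls 1 and 3 and close to each other. This made a log2 fold change of 0.07 (standard error 0.40) with all libraries and 0.52 (standard error 0.08) without control replicate 2. Blvra, the biliverdin reductase that is no member, had 20.5, 29.7 and 20.1 in the controls, against 18.4, 17.4 and 19.5 in the exposed libraries. On the log2 scale the change was -0.31, with a standard error of 0.22 (adjusted p = 0.875 from limma), and -0.13 without control replicate 2 (adjusted p = 0.526, range over 17 alternatives 0.507 to 0.999).

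**Figure D2:**
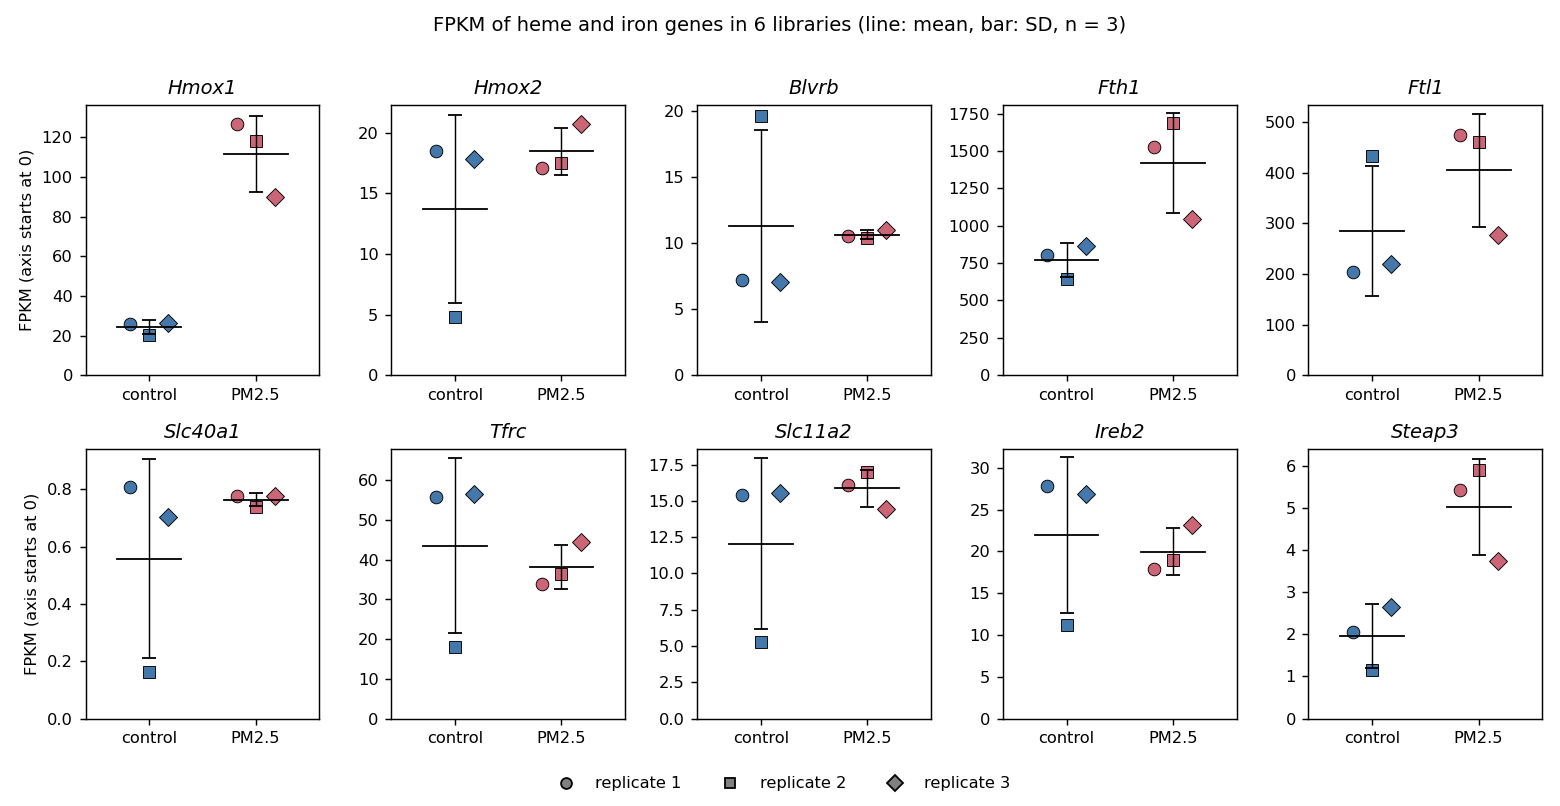
FPKM of each of the 10 genes by group, with a marker shape for each replicate number, a line for the mean and a bar for the SD of 3 libraries; every axis starts at 0. Hmox1, Fth1 and Steap3 have all PM2.5 libraries above all control libraries, and control replicate 2 (square) lies apart in the other 7 genes.

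The ferritin genes had the highest levels of the 10. Fth1 (ENSMUSG00000024661, chr19:9980598-9985098), the heavy chain that oxidises iron, had an FPKM of 806, 647 and 862 in the controls, against 1524, 1685 and 1044 in the exposed libraries. The groups did not overlap, and PM2.5 replicate 3 was the closest to the controls. Means were 771 ± 112 (SD, n = 3) and 1418 ± 334 (SD, n = 3), or 1.84-fold higher after exposure. On the log2 scale the difference was 0.86 (standard error 0.34), and 0.74 (standard error 0.23) without control replicate 2. In PM2.5 replicates 1, 2 and 3, Fth1 alone held 0.556%, 0.606% and 0.373% of all recovered reads, against 0.288%, 0.180% and 0.308% in the control libraries. Its gene model is 3469 bases long and its principal mRNA 929 bases, so the deposited FPKM understates its level per mRNA length by 3.73 times relative to a gene whose model is only its mRNA.

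Ftl1 (ENSMUSG00000050708, chr7:45457944-45459884), the light chain, had an FPKM of 203, 434 and 220 in the controls, against 475, 461 and 276 in the exposed libraries. Control replicate 2 lay among the PM2.5 libraries, whereas controls 1 and 3 lay below all of them. Its log2 difference was 0.55 (standard error 0.41), and 0.89 (standard error 0.27) without control replicate 2. Of its 31-base sequences, 64.2% are shared with other genes, mostly copies such as Ftl1-ps1, so its reads are uncertain. The FPKM of Ftl1-ps1 was at most 6.59. Fth1 had 3.97, 1.49 and 3.92 times the FPKM of Ftl1 in the controls, against 3.21, 3.65 and 3.78 times in the exposed libraries, so the heavy chain had the higher FPKM in each of the 6. The gene model is 3.73 times as long as the principal mRNA for Fth1 and 1.38 times for Ftl1. These ratios thus hold for FPKM only and understate the ratio per mRNA length.

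On the export side, Slc40a1 (ENSMUSG00000025993, chr1:45908068-45926523) was below an FPKM of 1 in each library. It had 0.808, 0.163 and 0.703 in the controls, against 0.777, 0.739 and 0.775 in the exposed libraries. Control replicate 2 was again the low one, and the PM2.5 libraries lay between controls 1 and 3. The reads behind these values were 135, 19 and 114 against 125, 118 and 126. Without control replicate 2 the PM2.5 mean was 1.01 times the control mean. Its gene model is 9000 bases long and its principal mRNA 3370 bases, so FPKM understates its level per mRNA length by 2.67 times. Per kilobase of principal mRNA it had 40.1 and 33.8 reads in controls 1 and 3, where Steap3, which passed the filter, had 42.3 and 53.1. Its 5′ element, printed above with those of ferritin, is carried by an mRNA with few reads in these cells.

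Among the uptake genes, Tfrc (ENSMUSG00000022797, chr16:32608920-32632794) had an FPKM of 55.8, 18.01 and 56.6 in the controls, against 33.9, 36.2 and 44.3 in the exposed libraries. Controls 1 and 3 were higher than every PM2.5 library, and control replicate 2 was lower than every one. With all libraries the log2 fold change was -0.03 (standard error 0.47), and it was -0.56 (standard error 0.14) without control replicate 2, when the PM2.5 mean was 0.679 times the control mean. Its direction thus rests on whether that library is kept, and with all libraries and scaling to total reads the value was 0.10. Reads numbered 6405, 1445 and 6308 in the controls, against 3745, 3977 and 4955 in the exposed libraries.

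Slc11a2 (ENSMUSG00000023030, chr15:100387898-100425072), the endosomal iron transporter, had an FPKM of 15.4, 5.25 and 15.5 in the controls, against 16.1, 16.98 and 14.5 in the exposed libraries. Apart from control replicate 2 the groups overlapped. For Slc11a2 the log2 fold change was 0.50 (standard error 0.41), and 0.03 (standard error 0.10) without that library. These gene-level values do not separate its isoforms, which differ in their ends.

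Steap3 (ENSMUSG00000026389, chr1:120190757-120272705), the ferrireductase of the endosome, had a low level, with an FPKM of 2.06, 1.16 and 2.66 in the controls, against 5.43, 5.90 and 3.74 in the exposed libraries. No PM2.5 library overlapped a control library. The means were 1.96 ± 0.754 and 5.02 ± 1.14 (SD, n = 3 each), or 2.56-fold higher after exposure. Its log2 fold change was 1.04 (standard error 0.27), and 0.83 (standard error 0.20) without control replicate 2. The pseudocount of 1 understates the change of a gene this low, and with a pseudocount of 0.1 the value was 1.36.

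Ireb2 (ENSMUSG00000032293, chr9:54863789-54912530) encodes iron regulatory protein 2, which binds the stem-loops above. Its FPKM was 27.8, 11.2 and 26.9 in the controls, against 17.9, 18.9 and 23.2 in the exposed libraries. As for Tfrc, the PM2.5 libraries lay below controls 1 and 3 and above control replicate 2. Its log2 difference was -0.04 (standard error 0.38), and -0.44 (standard error 0.13) without that library. Scaled to total reads with all libraries, it was 0.09. Aco1, which encodes iron regulatory protein 1, is no member. Its log2 difference was 0.42, with a standard error of 0.45 (adjusted p = 0.875 from limma), and -0.09 without control replicate 2.

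**Figure D3:**
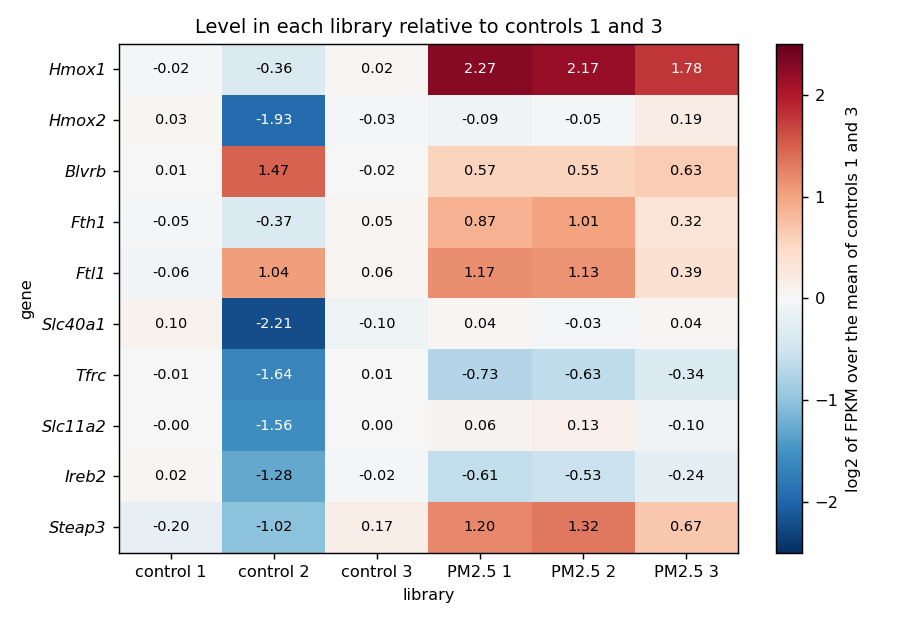
Log2 of the FPKM of each of the 10 genes (rows) in each of the 6 libraries (columns) over the mean of controls 1 and 3, with the value in each cell. Hmox1 reaches 2.27, 2.17 and 1.78 in the PM2.5 libraries, control replicate 2 ranges from -2.21 for Slc40a1 to 1.47 for Blvrb, and PM2.5 replicate 3 is paler than replicates 1 and 2 for Hmox1, Fth1, Ftl1, Tfrc, Ireb2 and Steap3.

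Counted over the 9 genes tested, all PM2.5 libraries lay above all control libraries for 3 (Hmox1, Fth1 and Steap3) and below them for 0. Over all genes tested, 15.2% did not overlap, 8.35% above and 6.85% below. Without control replicate 2, Ftl1 and Blvrb joined the first group, which made 5 above, and Tfrc and Ireb2 made 2 below, against 17.7% and 19.6% of all genes (37.3% in all). In control replicate 2, 7 of the 9 genes lay below both other controls and 2 above them (Blvrb and Ftl1), where 50.7% and 45.9% of all genes did. The 2 high ones had a GC content of 53.7% and 58.1%, but Hmox1 and Steap3 were among the low ones at 53.3% and 52.9%. The lowest GC contents of the 9 were 39.0% for Ireb2 and 39.8% for Tfrc. The most negative log2 deviation was that of Hmox2, -1.73 at a GC content of 49.9%. The part of GC content in these differences was not tested.

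Within the PM2.5 group, replicate 3 was nearer to controls 1 and 3 for several of the genes. It lay strictly between them and PM2.5 replicates 1 and 2 for Hmox1, Fth1, Ftl1, Tfrc, Ireb2 and Steap3, which is 6 of the 9 for which PM2.5 replicates 1 and 2 were separated from controls 1 and 3. Of the 9155 genes separated in this way over the whole table, 26.5% had PM2.5 replicate 3 in between. This count was chosen after the values were seen. Without PM2.5 replicate 3 the log2 fold change was 2.30 for Hmox1, 1.07 for Fth1, 0.80 for Ftl1 and 1.20 for Steap3.

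**Figure D4:**
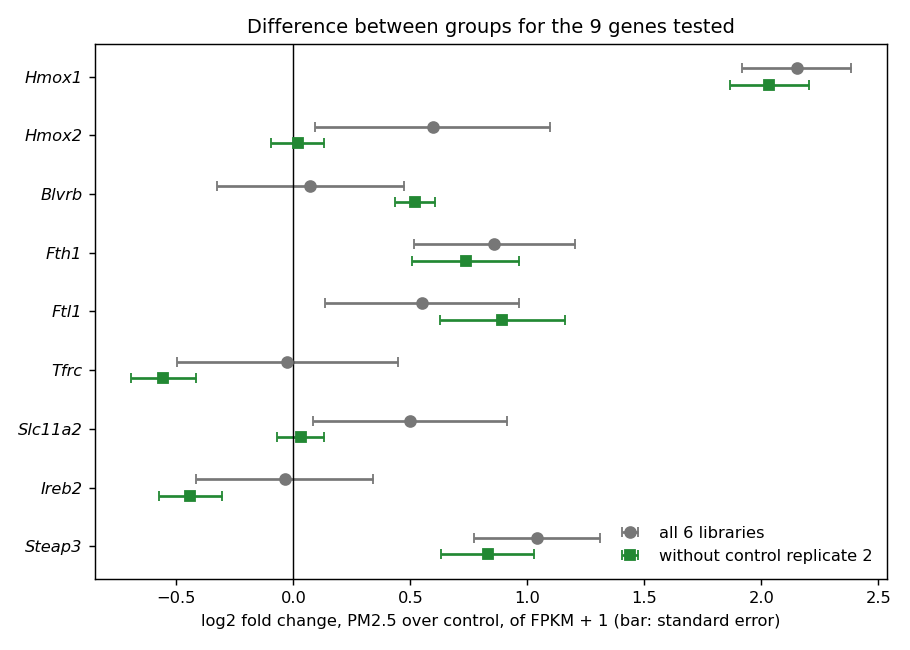
Log2 fold change of FPKM + 1, PM2.5 over control, with its standard error, for the 9 genes that passed the filter, with all 6 libraries (grey circles) and without control replicate 2 (green squares). Hmox1, Fth1, Ftl1 and Steap3 are above 0 in both, and Tfrc and Ireb2 move from about 0 to -0.56 and -0.44.

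The order of the levels differed little between the groups, apart from Hmox1. In FPKM, the order in controls 1 and 3 was Fth1, Ftl1, Tfrc, Ireb2, Hmox1, Hmox2, Slc11a2, Blvrb, Steap3 and Slc40a1, and no neighbours in it overlapped over these 2 libraries. With control replicate 2 included, Tfrc, Hmox1, Ireb2, Hmox2, Slc11a2 and Blvrb overlapped from neighbour to neighbour. In the PM2.5 group, Hmox1 stood at place 3, ahead of Tfrc (90.0 to 127 against 33.9 to 44.3), and Ireb2 and Hmox2 were the only neighbours that overlapped. The gene models behind FPKM are 1.11 (Steap3) to 3.73 (Fth1) times as long as the principal mRNA, so these orders hold for FPKM only. Per kilobase of principal mRNA, Slc11a2 had 601 and 588 reads in controls 1 and 3, above Hmox1 with 535 in each. The FPKM of Tfrc was 6.93%, 2.79% and 6.57% of that of Fth1 in the controls, against 2.22%, 2.15% and 4.25% in the exposed libraries.

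Other genes of iron and heme were taken from lists of known function, 67 genes in all, of which 48 passed the filter. With all libraries 0 of the 48 were called (0.0926% of all genes), and without control replicate 2 only Cpox was, as higher (0.16% of all genes). Their median log2 fold change was 0.22, against 0.02 over all genes tested, and without control replicate 2 it was 0.08 against -0.01. The PM2.5 libraries lay above all controls for 11 of the 48 and below them for 2, Blvra and Cp, where all genes had 8.35% and 6.85%. With control replicate 2 left out they lay above for 15 and below for 3, where all genes had 17.7% and 19.6%.

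In heme synthesis, 8 of 9 genes were tested, with a median log2 fold change of 0.14 (0.11 without control replicate 2). Cpox, which encodes coproporphyrinogen oxidase, had an FPKM of 10.2, 2.92 and 10.9 in the controls, against 25.9, 25.9 and 23.8 in the exposed libraries. The groups did not overlap. The log2 difference was 1.70, with a standard error of 0.45 (adjusted p = 0.758 from limma), and 1.19 without control replicate 2 (standard error 0.09, adjusted p = 0.0149, higher in 3 of 3 PM2.5 libraries). Over 17 alternatives its adjusted p-value ranged from 0.0084 to 0.988. Urod, which encodes uroporphyrinogen decarboxylase, had the lowest log2 fold change of the list, -0.37 (standard error 0.26, adjusted p = 0.875), and was at -0.13 without control replicate 2.

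For heme transport and sensing, 6 of 10 genes were tested, with a median of 0.14 (-0.02 without control replicate 2). Slc48a1, which carries heme out of the lysosome, had an FPKM of 29.0, 35.4 and 27.9 in the controls, against 83.4, 79.3 and 47.3 in the exposed libraries. Again the groups did not overlap, and PM2.5 replicate 3 was the nearest to the controls. The log2 difference was 1.13, with a standard error of 0.28 (adjusted p = 0.688 from limma), and 1.23 without control replicate 2 (adjusted p = 0.138), with a range of 0.116 to 0.988 over 17 alternatives. For Bach1, the repressor named above, it was -0.03 (standard error 0.20, adjusted p = 0.969), and -0.17 without that library. Pgrmc1, a heme-binding membrane protein, had the lowest value, -0.11 (standard error 0.36, adjusted p = 0.93), which became 0.25 without control replicate 2.

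Of the genes that handle ferritin, 3 of 4 were tested, with a median of 0.36 (0.38 without control replicate 2). Ncoa4, the receptor that delivers ferritin to the lysosome, had the highest log2 fold change, 0.89 (standard error 0.45, adjusted p = 0.875 from limma), and 0.38 without control replicate 2 (adjusted p = 0.271, range over 16 alternatives 0.242 to 0.988). Pcbp1, an iron chaperone, had the lowest, 0.21 (standard error 0.36, adjusted p = 0.883). Pcbp1 was at 0.45 without control replicate 2, above Ncoa4, so their order rests on that library.

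Among other uptake genes, 5 of 11 were tested, with a median of 0.20 (0.11 without control replicate 2). They ranged from -0.43 for Slc22a17, a lipocalin receptor (standard error 0.53), to 0.59 for Slc39a14, a transporter of iron that is not bound to transferrin (standard error 0.43, adjusted p = 0.875 from limma for each). Slc22a17 was at 0.11 without control replicate 2, with the sign turned, and Slc39a14 at 0.10, so neither end of this range holds without that library. Of the export list only Cp was tested, of 4. It encodes ceruloplasmin, the copper oxidase that loads iron onto transferrin. Its FPKM was 4.30, 4.25 and 3.76 in the controls, against 1.80, 1.98 and 2.52 in the exposed libraries. Control replicate 2 was close to the other controls, and no PM2.5 library reached them. Its log2 difference was -0.72, with a standard error of 0.17 (adjusted p = 0.6 from limma), and -0.70 without control replicate 2 (adjusted p = 0.113, range over 16 alternatives 0.085 to 0.988). As for Steap3, the pseudocount of 1 understates this change. With a pseudocount of 0.1 and all libraries, the log2 difference of Cp was -0.95.

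The sensing list had 4 of 7 genes tested, from -0.16 for Fbxl5, which marks iron regulatory protein 2 for degradation (standard error 0.23, adjusted p = 0.876 from limma, and -0.06 without control replicate 2), to 0.63 for Neo1, a co-receptor of iron signalling (standard error 0.55, adjusted p = 0.875), which was -0.02 without control replicate 2. The median was 0.39, and -0.04 without control replicate 2. Of the genes for mitochondrial iron and iron-sulfur clusters, 20 of 21 were tested, with a median of 0.14 (0.15 without control replicate 2). They ranged from -0.58 for Fdxr, the ferredoxin reductase (standard error 0.58), to 0.82 for Hspa9, the mitochondrial chaperone of cluster transfer (standard error 0.40, adjusted p = 0.875 for each). Fdxr was at 0.06 and Hspa9 at 0.40 without control replicate 2.

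**Figure D5:**
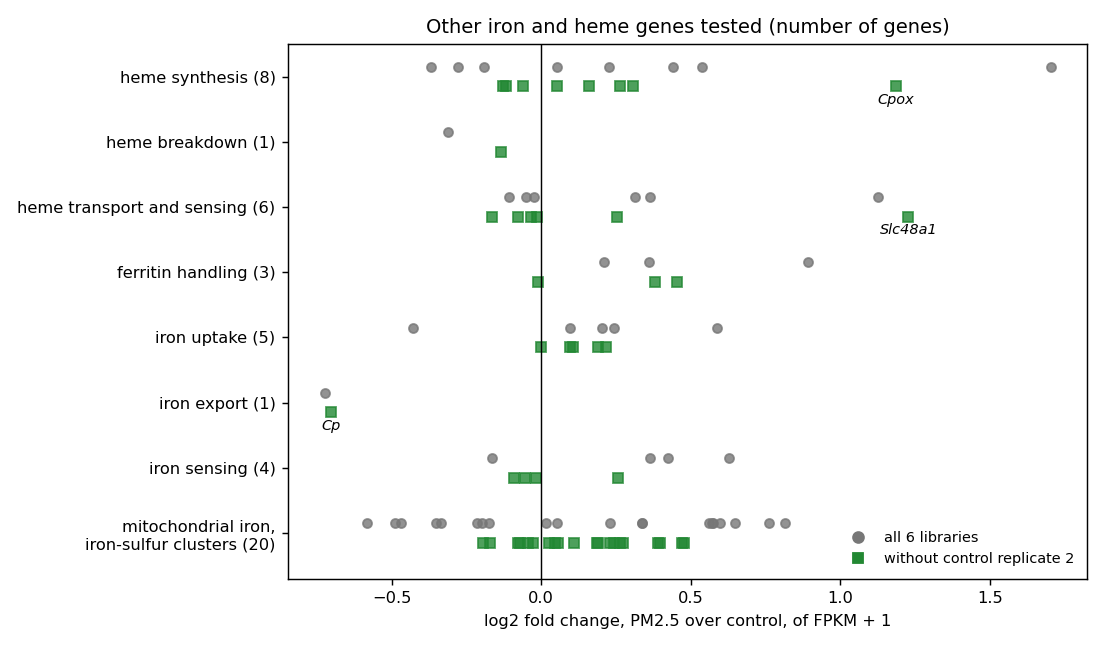
Log2 fold change of FPKM + 1, PM2.5 over control, of the 48 other iron and heme genes tested, by list, with all 6 libraries (grey circles) and without control replicate 2 (green squares). Cpox and Slc48a1 lie above 1 in both, Cp lies at -0.72 and -0.70, and the median moves from 0.22 to 0.08 without that library.

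Genes other than the 10 were searched for a pattern like that of 4 of the genes, by Pearson's r of log2(FPKM + 1) over the 6 libraries, among 7757 genes with an SD of at least 0.3. The points share the deviation of control replicate 2. Rasa3, Cachd1 and Cdh2 were closest to Hmox1, with r = 0.997, 0.996 and 0.995, and 39 genes had an r above 0.95. For Fth1 the closest were Slc24a3, Rbm19 and Uap1l1, with r = 0.999, 0.994 and 0.988, and 47 genes were above 0.95. Tfrc had 670 such genes, led by Cpd, Tmem45a and Desi2, and Slc40a1 had 1613, led by Adam9, Tpr and Abcc5.

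Promoters were taken from RefSeq on GRCm38.p6, as 250 bases before and 50 after each start, and 7 of the 10 genes matched, with 15 promoters. A gene counted when any of its promoters held the letters. Hmox1, Slc40a1 and Slc11a2 had no entry. The antioxidant response element core TGANNNNGC, searched on both strands, occurred in 2 of the 7 (Blvrb and Steap3), and in 48.1% of the 8460 tested genes with a promoter. The stricter TGACNNNGC, which is contained in it, occurred in 0 of the 7 and in 17.3% of those genes. The core GCGTG of the AhR element, also on both strands, occurred in 6 of the 7 (Hmox2, Blvrb, Fth1, Ftl1, Tfrc and Steap3), and in 58.4% of the tested genes. The hypoxia response core ACGTG occurred in 2 of the 7 (Blvrb and Tfrc) and in 30.3% of the tested genes, and the longer MAF recognition element in 0 of the 7 and in 0.142%. A match is a string of letters and not a site shown to be used. The lack of a match covers only these 300 bases and says nothing of sites farther from the start, and Hmox1 was not searched.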

How the data were processed

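Per the labels, GC-2spd RNA was made into libraries with a NEBNext Ultra kit and sequenced as paired ends on a Novaseq. The authors mapped the reads with HISAT2 2.0.5 and counted them with featureCounts 1.5.0-p3 (versions from the submitters' processing notes), and they deposited FPKM for 54886 genes in each library. Those notes name the build mm9. The gene identifiers of 54495 genes had a name and an exon length in GENCODE M21 on GRCm38. With these lengths 98.0% to 98.1% of the values under 50 reads were whole reads (within 0.02). Positions are those of GENCODE M21 and not of the files. The recovered reads were used for depth, scaling to totals and voom. The deposited scaling tracked size factors by the median of ratios, of which control replicate 2 had the lowest (0.769), rather than totals. It was kept.

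Fits used limma 3.58.1 (trend and robust, R 4.3.3) on log2(FPKM + 1), for 11884 genes whose mean FPKM was 1 or more, without a replicate block. The study's methods used DESeq2 on counts, which were not used here. The genes and lists were chosen with earlier results of these data known. Named genes are the 10, and of each list the called genes and those with the highest and lowest log2 fold change, and the 3 genes most like each of 4 members. Aco1, Bach1 and Ftl1-ps1 were named after their values were seen. On simulated data of 6 like libraries with 200 genes changed by a log2 fold change of 2 among 11884, 100% of them and 0 other genes were called. The simulated libraries had equal noise and none stood apart. In the data, control replicate 2 deviated from controls 1 and 3 by a median of 0.815 on the log2 scale. The simulation checks the code and does not give the sensitivity of the fit with that library. Sequence sharing was measured as the percentage of the 31-base sequences of a gene, on either strand, found in transcripts of other genes. Alternatives were another pseudocount, other filters and scalings, voom, a replicate block and leaving out each library. Figures were drawn with matplotlib 3.10.9.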

Additional observations from a re-analysis of the deposited data

How the results depend on the processing

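The settings that combine leaving out control replicate 2 with another choice were added after the data were seen. Of all genes tested, 11 were called. Scaling to total reads shifted the median log2 fold change by 0.108 and gave 6 calls (3 higher and 3 lower, against 4 and 7). The count was 0 without a filter (875 genes at an unadjusted p-value under 0.05), with a mean FPKM of at least 5 (254), with voom (423) and with the replicate block (335), all in limma. Leaving out 1 library gave 0 to 84 genes, and the 84 came without control replicate 2. Without that library, the count was 92 with the replicate block, 118 on the adjusted p-value alone, 85 with scaling to total reads, 86 with quantile normalization and 108 with voom. The 10 genes had 0 called in every alternative that kept control replicate 2 and 1 called in each that left it out (0 to 1 over the libraries left out). The 48 other iron and heme genes likewise had 0, and 1 without control replicate 2 (0 to 1 over the libraries left out), but 0 when the replicate block was added, where the adjusted p-value of Cpox was 0.0554.

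Same-numbered libraries had correlations of their deviations of -0.285, 0.18 and 0.253 across genes, and only replicate 3 of the control group correlated best with its own number, so the numbers were not taken as pairs.

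The log2 fold change of Hmox1 stayed between 1.99 and 2.30 over 17 alternatives. For Fth1 it was 0.39 to 1.07, the lowest with quantile normalization without control replicate 2, and for Ftl1 0.35 to 0.91. For Steap3 it was 0.72 to 1.37. Without control replicate 2 it was -0.58 to -0.52 for Tfrc and -0.46 to -0.41 for Ireb2, and over all alternatives it reached 0.24 and 0.18. Hmox2 ranged from 0.00828 to 0.90. Blvrb turned to -0.15 and -0.16 without control replicate 1 and 3, and otherwise reached 0.58. Slc11a2 reached 0.73, and was -0.017 without control replicate 2 with the replicate block.

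Named genes outside the 10 that changed sign were not called. Pgrmc1 was 0.0244 with scaling to total reads and 0.13 with quantile normalization. Without control replicate 2 it was 0.29 with the replicate block, 0.27 with scaling to total reads, 0.20 with quantile normalization and 0.26 with voom. Under the last 3 of these, Slc22a17 was 0.12, 0.12 and 0.0925, and Fdxr 0.0673, 0.0608 and 0.0540. Under all 4, Neo1 was -0.0115, -0.00542, -0.0368 and -0.0185. Fbxl5 was 0.0194 with the block. Leaving out 1 library gave -0.30 to 0.25 for Pgrmc1, -0.73 to 0.11 for Slc22a17, -0.0177 to 0.96 for Neo1 and -0.94 to 0.0552 for Fdxr. Why these values moved was not tested, and the cause was not tested for the counts either. Recovered reads limit Slc40a1 most, with 19 in control replicate 2.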
